A study of Mus musculus with 21 samples.

Results

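The solute carriers (Slc genes) are the large set of membrane transporters that move nutrients, ions, nucleotides, metals and metabolites into cells and between their compartments. The members described here are all genes with a single-gene probe set on the Affymetrix Murine Genome U74Av2 array whose symbol starts with Slc and a digit, other than Slc2a1, Slc2a3, Slc1a5, Slc3a2, Slc7a5, Slc7a11, Slc11a2, Slc40a1 and Slc30a1. This left 143 of the 8251 genes measured, read by 175 probe sets in 40 families, with 1 probe set kept per gene (the one with the highest mean over all 21 arrays). The choice used symbols, and earlier results of these data were known when it was made. Every member is counted below, and no member was dropped for a low signal.

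The cells were B16-F10, a mouse melanoma line of C57BL/6J origin. Each of 3 hypoxia sets compared 2 control arrays at 21% oxygen with 3 arrays of cells kept for 24 h at 1% oxygen, in a sealed Billups-Rothenberg chamber or, in experiments 1 and 2, in an oxygen-regulated incubator. The labels give the chamber controls no experiment number, and they were matched to the chamber arrays for that reason. In experiment 3, 2 controls at 21% oxygen were compared with 2 arrays at 100 µM and 2 at 200 µM cobalt chloride (CoCl2), a chemical mimic of hypoxia, after 24 h. How long the controls were kept, the oxygen level of the CoCl2 cultures and whether replicates came from separate cultures are not given in the labels, and the spread that p-values are set against may therefore be technical. All groups are 1 cell line, and both doses share the same controls.

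Low oxygen stabilises the HIF transcription factors, which bind short DNA motifs containing RCGTG and switch cells towards glucose uptake, glycolysis and proton export. Cobalt ions stabilise the same factors with oxygen present. The transporters that carry glucose, lactate, bicarbonate, amino acids and mitochondrial substrates supply or clear what this programme uses, and several amino acid transporters are also induced by the stress factor ATF4. Members were sorted by the substrate of their family into 8 roles, with 3 members of families left unassigned (Slc50a1, Slc51a and Slc66a2). A role can therefore hold members with other substrates, such as Slc6a8 (creatine) among amino acids and Slc5a6 (vitamins) among sugars. Slc9a3r1, Slc9a3r2 and Slc4a1ap carry the prefix but encode scaffold or adaptor proteins, and they are counted as members because the symbol chose them.

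The levels are log2 signals, and a change is a treated group minus its own controls on that scale. "Rose" and "fell" are used of changes with a limma adjusted p under 0.05 over all 8251 genes. Of 12 known HIF targets measured in the same arrays, 11 rose at 1% oxygen (median change 2.09) and 11 rose with CoCl2 (median 1.74). Melanocyte markers averaged 8.39 to 8.62 over the control arrays, 8.21 to 8.59 at 1% oxygen and 6.11 to 7.23 with CoCl2. With CoCl2 8 of 9 fell and the other, Ednrb, rose by 0.369. The average hides single changes at 1% oxygen, where Mitf rose by 0.894. Gpr143, Mc1r and Pmel fell there (changes -0.951, -0.245 and -0.236). Marker lists of fibroblasts, leukocytes, endothelium and epithelium averaged between 4.35 and 5.4 on every array, and 1 of 7 epithelial and 2 of 8 leukocyte markers rose at 1% oxygen. With CoCl2 4 of 7 epithelial, 2 of 8 leukocyte, 2 of 9 fibroblast and 1 of 7 endothelial markers rose, and 1 fibroblast marker fell. The 3′ minus 5′ signal of Actb, a measure of RNA quality, lay between 0.147 and 0.496 on all arrays of the 3 hypoxia sets. The arrays of experiment 3 gave higher values, with 1.41 and 1.62 for its controls. They were 2.36 and 2.16 for the lower CoCl2 dose, and 1.47 and 0.5 for the higher dose. The same signal for Gapdh ranged from 0.071 to 0.524 outside experiment 3. Within that experiment the first control read 2.21 and the second 0.92, a wider gap than for Actb. Gapdh read 1.44 and 2.18 at the lower dose, and 0.45 and 0.12 at the higher dose. Its bearing on the CoCl2 counts was not tested.

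At 1% oxygen the members moved by small steps. Over the 3 sets together 13 members rose, 9.09% of the 143 against 12.6% of all genes, and 31 fell, 21.7% against 19.5% of all genes. Both shares lay near those of all genes, and the members' median change was -0.01 against 0.01 for all genes. A change of at least 0.5 was reached by 3 of the 13 that rose (23.1%, against 32.1% of all genes that rose) and by 12 of the 31 that fell (38.7%, against 31.4%). No member reached a change of 1, as 10.7% and 3.05% of all genes that rose and fell did. Of the transporters that the rule set apart, Slc2a1 (2.38) and Slc1a5 (-1.35) did, so the absence of large changes depends on that choice. Among members the strongest falls were of Slc25a10, Slc1a4, Slc38a2 and Slc12a7, and the strongest rises of Slc25a36, Slc37a4 and Slc30a9.

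**Figure D1:**
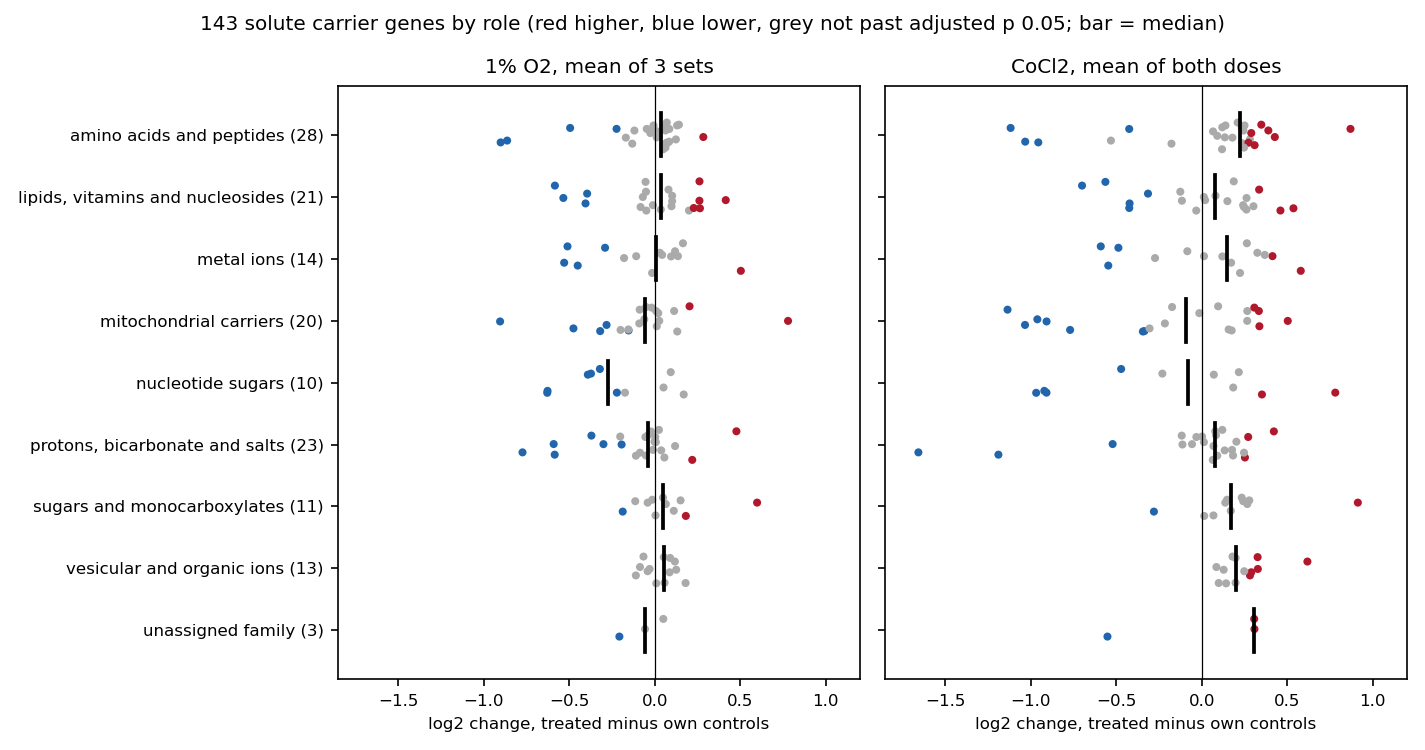
Log2 change of each of the 143 members (points, treated minus own controls) by role of its family, at 1% oxygen (left) and with CoCl2 (right); black bars are role medians and colours mark genes past the adjusted p threshold. The Slc35 family, labelled nucleotide sugars, had 6 of 10 members lower (60.0%, against 19.5% of all genes) and a median of -0.27 at 1% oxygen. The vesicular and organic ion role had 5 of 13 higher (38.5%, against 23.3% of all genes) and none lower with CoCl2.

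Mitochondrial carriers pass metabolites through the inner mitochondrial membrane. Of 20, 2 rose (10.0%, against 12.6% of all genes) and 5 fell (25.0%, against 19.5%). Slc25a36, a carrier of pyrimidine nucleotides, gave control signals of 6.96 and 7.04 in the chamber set, 6.85 and 7.10 in experiment 1, and 6.69 and 6.53 in experiment 2. At 1% oxygen its signals were 7.54, 7.85 and 7.85, then 7.55, 7.64 and 7.63, then 7.62, 7.48 and 7.60. Every hypoxic array was above both controls of its set. The change was 0.78 (SE 0.079), a 1.72-fold rise, with an adjusted p of 7.1e-08. Slc25a10, the dicarboxylate carrier that exchanges malate and succinate for phosphate, gave 7.43 and 7.24, 7.15 and 7.19, and 7.30 and 7.26 in the 3 sets of controls. Hypoxic arrays read 6.46, 6.59 and 6.47 in the chamber, 6.23, 6.24 and 6.24 in experiment 1, and 6.34, 6.29 and 6.37 in experiment 2. The groups did not overlap in any set, and the fall was 1.87-fold (change -0.90, SE 0.057, adjusted p = 4e-11). Slc25a15, the ornithine carrier of the urea cycle, fell by 0.28, a call that was lost with replicate numbers as blocks (adjusted p = 0.074), and Slc25a28, a mitochondrial iron importer, fell by 0.32. The ADP/ATP exchangers Slc25a4 and Slc25a5 did not pass, with changes of -0.09 (95% interval -0.26 to 0.09) and -0.20 (-0.46 to 0.06).

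**Figure D2:**
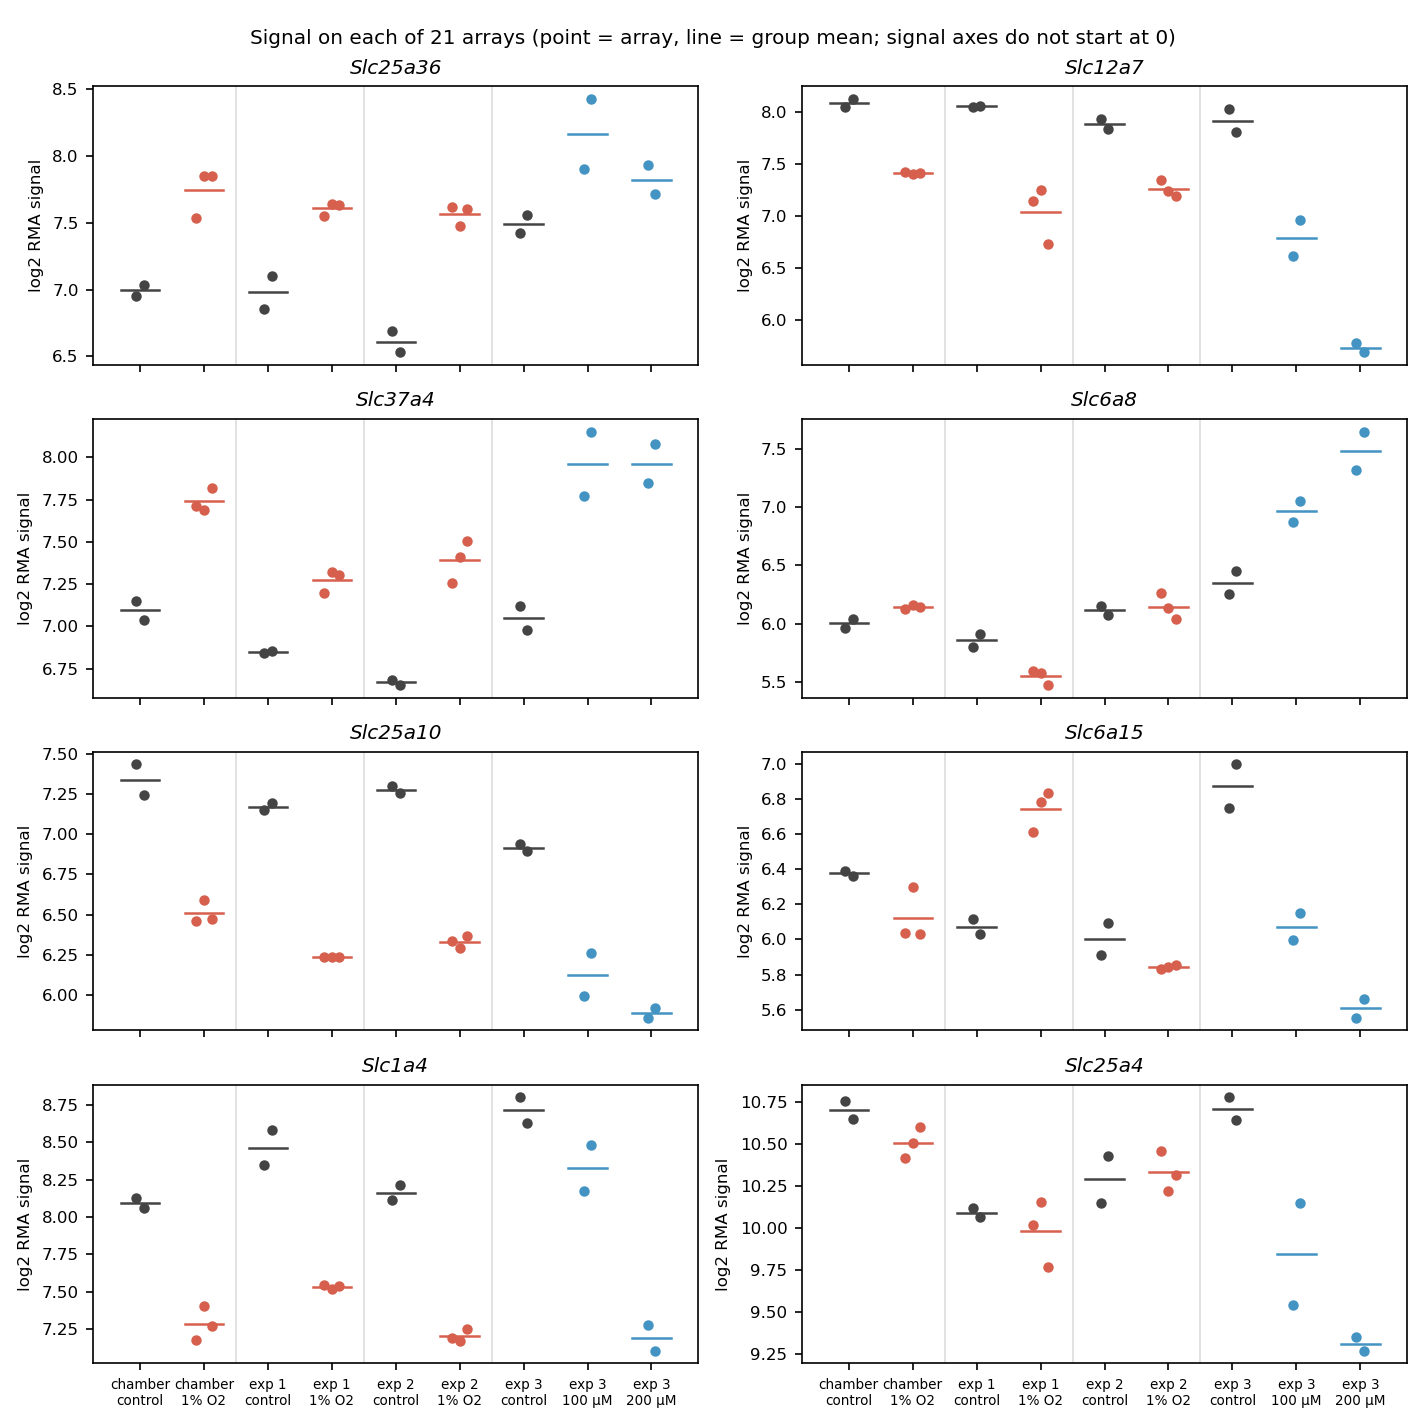
Log2 signal of 8 members on each of the 21 arrays (points) with group means (lines), by set; grey points are controls, red 1% oxygen and blue CoCl2. Slc25a36 and Slc37a4 were above, and Slc25a10, Slc1a4 and Slc12a7 below, both controls of the same set on all 9 hypoxic arrays. Slc6a8 and Slc25a4 left the control range on all 4 CoCl2 arrays, as did Slc37a4, Slc25a10, Slc1a4, Slc12a7 and Slc6a15.

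Among amino acid transporters 1 of 28 rose (3.6%, against 12.6% of all genes) and 4 fell (14.3%, against 19.5%). Slc1a4 (ASCT1), which carries alanine, serine, cysteine and threonine, read 8.13 and 8.06, 8.35 and 8.58, and 8.11 and 8.22 in the controls of the chamber set and of experiments 1 and 2. It read 7.18, 7.40 and 7.27, then 7.55, 7.52 and 7.54, then 7.19, 7.17 and 7.25 at 1% oxygen, below both controls on every array. The fall was 1.87-fold (change -0.90, SE 0.065, adjusted p = 3.4e-10). Slc38a2 (SNAT2), a sodium-coupled carrier of glutamine and other neutral amino acids, fell by 0.86 (SE 0.168, adjusted p = 0.00031). Its arrays spread more: hypoxic arrays read 5.76, 6.41 and 6.42 against controls of 7.87 and 7.42 in the chamber, but 6.41, 6.78 and 6.18 against 6.94 and 6.91 in experiment 1. In experiment 2 the lower control, at 6.46, lay just above the highest hypoxic array at 6.44. Slc38a2 has 3 further probe sets with lower signals, whose changes were 0.03, 0.08 and 0.18 from the highest signal down. The mean of its 4 probe sets changed by -0.14 (adjusted p = 0.12), so the call rests on 1 probe set.

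The remaining amino acid transporters past the threshold moved less. Slc6a6, the taurine transporter, fell by 0.49 (SE 0.076, adjusted p = 2.1e-05) and Slc6a9, a glycine transporter, fell by 0.22. The lower probe set of Slc6a6 changed by -0.06 at 1% oxygen, and the mean of both by -0.28. Slc7a1 (CAT1), which carries arginine and lysine, rose by 0.28 (SE 0.078, adjusted p = 0.0064). The rise of Slc7a1 had an adjusted p of 0.057 when replicate numbers were fitted as blocks. Of 12 genes induced by ATF4, listed for reference, 3 rose and 6 fell at 1% oxygen. Among the 8 measured transporters that the symbol rule set apart, 1 rose and 4 fell, with the glucose transporter Slc2a1 at 2.38 and the neutral amino acid transporter Slc1a5 at -1.35.

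Transporters of protons, bicarbonate and salts gave 2 rises (8.7%, against 12.6% of all genes) and 6 falls (26.1%, against 19.5%) among 23. Slc4a4, a sodium bicarbonate cotransporter, read 4.72 and 4.65, 4.56 and 4.86, and 4.66 and 4.54 in the 3 pairs of controls. Hypoxic arrays read 5.06, 5.37 and 5.14, then 5.28, 5.28 and 5.24, then 5.26, 4.82 and 4.82, all above their controls. The rise was 0.48 (SE 0.077, adjusted p = 3.4e-05). The potassium chloride cotransporter Slc12a7 (KCC4) read 8.05 and 8.13, 8.05 and 8.06, and 7.94 and 7.84 without hypoxia. It read 7.42, 7.41 and 7.42, then 7.14, 7.26 and 6.73, then 7.35, 7.24 and 7.19 with it. The groups did not overlap in any set and the fall was 1.71-fold (change -0.77, SE 0.076, adjusted p = 4.3e-08). Slc12a2 (NKCC1), the sodium potassium chloride cotransporter that works in the opposite direction, fell by 0.58 (SE 0.105, adjusted p = 0.00013). Slc20a1, a phosphate importer, fell by 0.59 over the sets, with changes of -0.82, -0.17 and -0.78 that did not differ past the threshold (adjusted p = 0.20 for chamber minus incubator and 0.17 for experiment 1 minus 2). Slc4a1ap rose by 0.22, and its adjusted p passed 0.05 without any of several arrays (0.16 without the first control of experiment 1 and 0.17 without the first control of experiment 2). Of 8 Na,K-ATPase and FXYD subunits, which set the sodium gradient these transporters use, none rose and 1 fell: Atp1b3 changed by -0.58.

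The 10 members of family Slc35 were sorted as nucleotide sugar transporters, which supply the Golgi and endoplasmic reticulum with building blocks of glycans. The sorting was by family, and not all of them carry nucleotide sugars. The family had 6 falls (60.0%, against 19.5% of all genes), no rise and a median change of -0.27. With median centring or quantile normalization the count was again 6 of 10, with medians of -0.26 and -0.27. Slc35b2, which imports PAPS, the sulphate donor of sulphated glycans, gave controls of 7.84 and 8.02, 7.52 and 7.65, and 7.96 and 7.64. Hypoxic arrays read 7.43, 7.24 and 7.41, then 6.88, 6.85 and 6.60, then 7.28, 7.28 and 7.32. The fall was 0.63 (SE 0.067, adjusted p = 1.6e-07), with no overlap in any set. Slc35d1, which carries UDP-glucuronate and UDP-N-acetylgalactosamine, fell by 0.63 (SE 0.079, adjusted p = 1.5e-06) and the orphan family member Slc35e4 fell by 0.22. The call of Slc35e4 was lost without the second control of experiment 1 (adjusted p = 0.064). Slc35b1, Slc35c2 and Slc35e1, named here after their values were seen, fell by 0.39, 0.37 and 0.32. A second probe set of Slc35e1 changed by 0.03. Slc35a1, the CMP-sialic acid transporter, changed by -0.17 (95% interval -0.37 to 0.02) and did not pass, but did with array weights (-0.20, adjusted p = 0.013).

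Metal ion transporters gave 1 rise (7.1%, against 12.6% of all genes) and 4 falls (28.6%, against 19.5%) among 14. Slc30a9 (ZnT9), a zinc transporter of mitochondria, rose by 0.50 (SE 0.091, adjusted p = 0.00013). Its controls read 5.40 and 5.28, 5.21 and 5.42, and 5.0 and 5.21, and its hypoxic arrays 5.84, 5.93 and 6.04, then 5.65, 5.72 and 5.52, then 5.87, 5.68 and 5.58. All 9 hypoxic arrays were above their controls. The 4 falls were of zinc transporters: Slc39a7 (ZIP7), which releases zinc from the endoplasmic reticulum, fell by 0.53, Slc39a6 (ZIP6) by 0.51, Slc39a9 (ZIP9) by 0.45 and Slc30a4 (ZnT4) by 0.29. The second probe set of Slc30a4 changed by 0.00. Slc39a7 fell by nearly the same amount in each set (0.54, 0.54 and 0.51).

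Among transporters of lipids, vitamins and nucleosides 5 of 21 rose (23.8%, against 12.6% of all genes) and 4 fell (19.0%, against 19.5%). Slc23a2, which imports ascorbate, rose by 0.42 in the chamber, 0.42 in experiment 1 and 0.41 in experiment 2 (mean 0.42, SE 0.075, adjusted p = 0.00013). Its 6 controls read between 6.80 and 7.22 and its 9 hypoxic arrays between 7.14 and 7.71, with no overlap within a set. The fatty acid transport proteins Slc27a1 and Slc27a4 rose by 0.26 each, and the choline transporter-like proteins Slc44a1 and Slc44a2 by 0.23 and 0.26. The changes of Slc44a2 were 0.08 in the chamber, 0.01 in experiment 1 and 0.70 in experiment 2. Slc27a4 no longer passed without the first control of experiment 2 (change 0.21, adjusted p = 0.059), nor did Slc44a2 with replicate numbers as blocks (adjusted p = 0.085). The falls were of Slc10a3, a bile acid family member of unknown substrate (change -0.58), the haem transporter Slc48a1 (-0.53), the nucleoside transporter Slc29a1 (-0.40) and the folate transporter Slc19a1 (-0.39). Second probe sets of Slc29a1 and Slc19a1 changed by 0.20 and -0.13.

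Of 11 sugar and monocarboxylate transporters 2 rose (18.2%, against 12.6% of all genes) and 1 fell (9.1%, against 19.5%). Slc37a4, which brings glucose 6-phosphate into the endoplasmic reticulum, read 7.15 and 7.04, 6.84 and 6.85, and 6.68 and 6.65 in the controls. It read 7.71, 7.69 and 7.82, then 7.20, 7.32 and 7.31, then 7.26, 7.41 and 7.51 at 1% oxygen, above its controls on every array. The rise was 0.60 (SE 0.067, adjusted p = 3.1e-07). The glucose and fructose transporter Slc2a8 also rose (0.18, adjusted p = 0.045), with 0.46 in the chamber, -0.07 in experiment 1 and 0.16 in experiment 2, but not when tested as a probe set among all probe sets (adjusted p = 0.053). Slc5a6, a vitamin transporter, fell by 0.19, which was not kept with replicate numbers as blocks (adjusted p = 0.12) or without the first control of experiment 2 (0.065). The lactate and pyruvate carrier Slc16a1 (MCT1) changed by -0.11 (95% interval -0.28 to 0.06) and did not pass. The sets gave -0.53 in the chamber, which passed as a fall, 0.06 in experiment 1 and 0.13 in experiment 2. Slc16a1 was dim, with a mean signal of 3.42 over all arrays, so a small change says little about whether its level was steady. Its partner protein Bsg rose by 1.28 and the other partner, Emb, fell by 0.38. None of 13 vesicular and organic ion transporters passed at 1% oxygen, against 32.0% of all genes.

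The 3 hypoxia sets were also read one by one. In the chamber 16 members rose against 7.96% of all genes and 19 fell against 15.1%. In experiment 1, 6 rose (background 7.57%) and 20 fell (background 10.7%), a split of 8 and 16 after median centring. In experiment 2, 8 rose (background 7.55%) and 17 fell (background 7.79%). As shares of the 143 members these counts were 11.2% and 13.3%, 4.2% and 14.0%, and 5.59% and 11.9%. The counts depended on single controls: without the first or the second chamber control 20 or 12 members passed in the chamber set, and without either control of experiment 1 it was 17 or 13. In experiment 2 the count was 9 without its first control and 15 without its first hypoxic array.

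Called in each of the 3 sets were 3 rises (Slc23a2, Slc25a36 and Slc37a4) and 10 falls (Slc10a3, Slc12a7, Slc19a1, Slc1a4, Slc25a10, Slc35b1, Slc35b2, Slc35d1, Slc39a7 and Slc39a9). These were 2.1% and 6.99% of the members, against 3.09% and 4.65% of all genes. Of the 13 rises over the 3 sets 11 (84.6%) had 1 sign in all sets, as had 30 of the 31 falls (96.8%), against 89.6% and 93.4% for all genes. No member passed for the difference between chamber and incubator by limma, against 2.16% of all genes, and 24 had an unadjusted p under 0.05. For the difference between experiments 1 and 2 it was 1 member, Slc6a15, against 0.327% of all genes, and 12 had an unadjusted p under 0.05. The counts by unadjusted p were not made over all genes. Slc6a15, a carrier of branched-chain amino acids, read 6.61, 6.78 and 6.83 in hypoxia against 6.11 and 6.03 in experiment 1. In experiment 2 it read 5.83, 5.84 and 5.85 against 5.91 and 6.10. The changes of 0.67 and -0.16 differed by 0.83 (SE 0.159, adjusted p = 0.017). That call was lost without any of 5 single arrays, the first (adjusted p = 0.064) or second (0.13) control or the third hypoxic array (0.054) of experiment 1, and the second control (0.11) or second hypoxic array (0.054) of experiment 2.

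**Figure D3:**
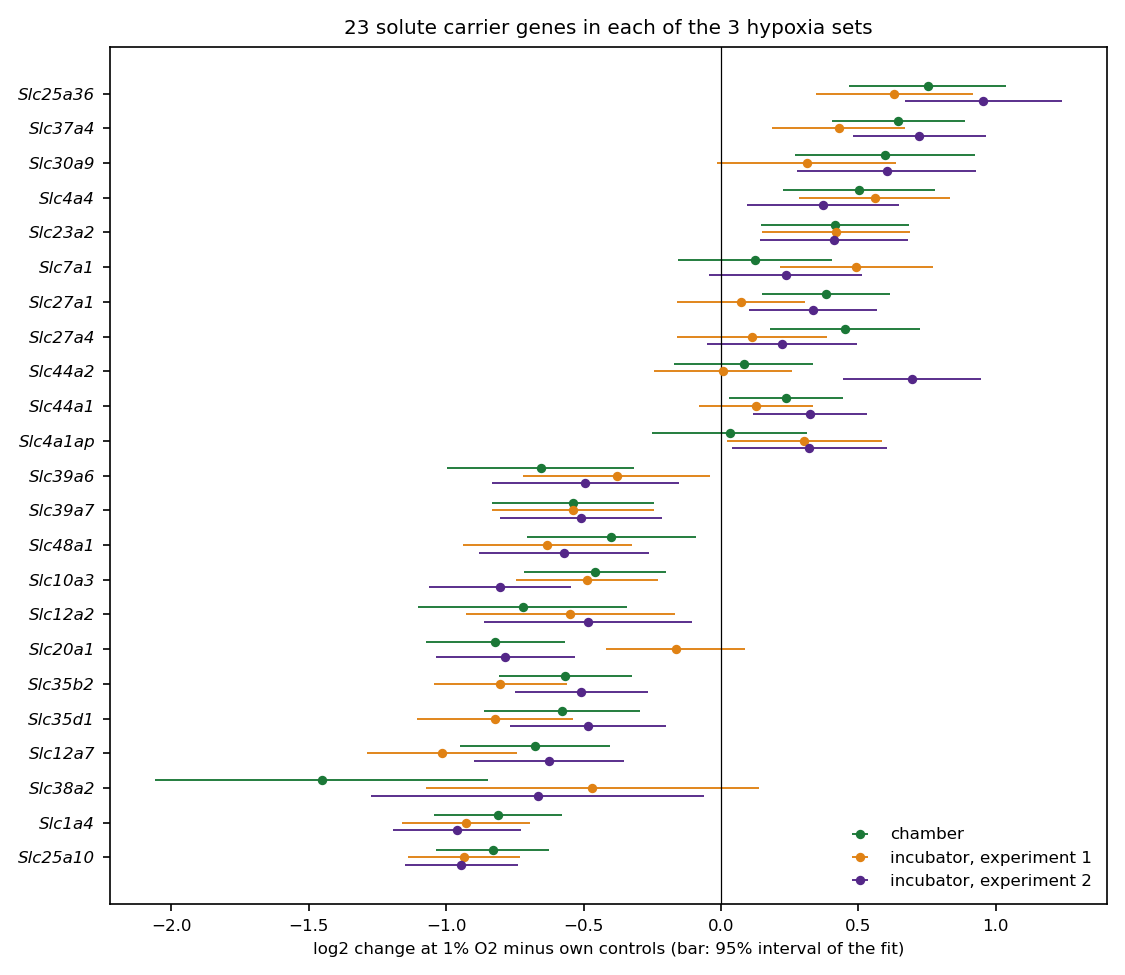
Log2 change at 1% oxygen minus own controls (points, with 95% intervals of the fit) in each hypoxia set for the 23 members with the strongest changes of 1 sign in all sets. Slc25a10, Slc1a4 and Slc23a2 had nearly equal changes in the 3 sets, while Slc38a2, Slc20a1 and Slc44a2 spread most.

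Promoters were compared for members that moved in opposite directions, since HIF binds ACGTG and GCGTG and ATF4 with its partners binds TGATGNAAN. RefSeq windows (GRCm38.p6) from 250 bases before to 50 after a start were matched for 120 of the 143 members, in 171 windows, and both strands were searched. Below are 3 windows, written 5′ to 3′ on the strand of the gene with these motifs in capitals: that of the strongest rise, Slc25a36 (chr9:97110992-97111291, minus strand), and those of 2 of the strongest falls, Slc12a7 (chr13:73763410-73763709, plus strand) and Slc1a4 (chr11:20332664-20332963, minus strand).
Slc25a36: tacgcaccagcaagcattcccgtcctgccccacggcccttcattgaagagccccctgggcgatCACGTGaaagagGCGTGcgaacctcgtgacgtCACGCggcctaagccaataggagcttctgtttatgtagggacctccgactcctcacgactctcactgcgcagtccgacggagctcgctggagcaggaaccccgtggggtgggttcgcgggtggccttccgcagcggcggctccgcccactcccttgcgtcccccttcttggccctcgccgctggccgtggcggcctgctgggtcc
Slc12a7: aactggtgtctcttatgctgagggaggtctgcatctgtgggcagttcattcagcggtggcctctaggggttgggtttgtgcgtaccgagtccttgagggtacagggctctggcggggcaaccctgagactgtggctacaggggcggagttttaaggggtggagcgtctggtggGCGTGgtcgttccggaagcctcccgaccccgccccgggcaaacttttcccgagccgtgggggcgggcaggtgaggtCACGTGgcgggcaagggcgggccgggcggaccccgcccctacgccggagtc
Slc1a4: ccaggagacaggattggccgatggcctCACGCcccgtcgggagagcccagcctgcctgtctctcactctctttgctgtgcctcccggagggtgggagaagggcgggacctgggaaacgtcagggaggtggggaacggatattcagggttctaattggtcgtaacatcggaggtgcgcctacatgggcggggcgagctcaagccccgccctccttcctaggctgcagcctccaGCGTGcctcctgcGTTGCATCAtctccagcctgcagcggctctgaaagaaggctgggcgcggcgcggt

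In the Slc25a36 window ACGTG lay 187 and 186 bases before the start on opposite strands, as the palindrome CACGTG, with GCGTG 175 and 155 bases before it. The printed Slc12a7 window held CACGTG across the start itself and GCGTG 77 bases before it. A second, overlapping Slc12a7 window (chr13:73763447-73763746) held ACGTG 38 and 37 bases before its start. GCGTG lay 114 bases before and 32 bases after that start. The Slc1a4 window held GCGTG 223 and 18 bases before the start and TGATGNAAN, on the opposite strand, 5 bases before it. Not all strong movers carried these motifs. The window of Slc25a10, the strongest fall, held none of them, and no match was found for Slc37a4, the rise next to Slc25a36 in size. The printed windows therefore do not stand for all of the strongest changes. ACGTG or GCGTG occurred in 40.9% of the 22 windows of members that rose at 1% oxygen and in 70.0% of the 40 windows of members that fell. The shares were 52.6% in all 171 member windows, 57.7% in windows of all genes measured and 43.8% in all windows of the table. TGATGNAAN occurred in 3.51% of member windows, in 2.43% of windows of all genes measured and in 3.95% of all windows. It was in 0 of the 22 windows of members that rose and in 2 of the 40 of members that fell. These matches describe the letters in the windows and were not tested against binding.

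With CoCl2 more members moved, in both directions. The fit set these changes against a spread estimated for each gene over all 21 arrays. The 2 arrays of a dose correlated at 0.9801 (100 µM) and 0.9858 (200 µM), below the 0.9925 to 0.9981 within the other groups. With only the arrays of experiment 3 fewer members passed, as given in the closing section. Over the mean of both doses 29 members rose, 20.3% against 23.3% of all genes, and 28 fell, 19.6% against 23.0%. The members' median change was 0.14 and that of all genes 0.11. A change of 0.5 was reached by 19 of the 28 falls (67.9%) and 7 of the 29 rises (24.1%), against 73.3% and 31.2% for all genes. A change of 1 was reached by 6 falls (21.4%) and no rise, against 28.5% and 7.66% for all genes. Among the transporters set apart by the rule, Slc2a1 and Slc7a11 changed by 2.80 and 1.63, and Slc1a5 and Slc7a5 by -1.02 and -1.36. At 100 µM 24 members rose (background 17.6%) and 22 fell (background 20.7%). At 200 µM 22 rose (background 19.7%) and 27 fell (background 22.3%), a split that became 33 and 24 after median centring and 31 and 23 after quantile normalization. Without the first control of experiment 3 the counts were 29 instead of 57 for the mean, 25 instead of 46 at 100 µM and 31 instead of 49 at 200 µM. The count at 100 µM was 29 without the first array of that dose.

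The falls with CoCl2 were led by salt, mitochondrial and amino acid transporters. Slc12a7 read 8.03 and 7.81 in the controls, 6.62 and 6.96 at 100 µM, and 5.78 and 5.70 at 200 µM. Its fall was 2.19-fold at 100 µM and 4.54-fold at 200 µM, and 1.66 on the log2 scale over both (SE 0.124, adjusted p = 5.1e-10). Slc12a2 read 6.22 and 5.94, then 4.98 and 5.48, then 4.63 and 4.47, a change of -1.19 (SE 0.173, adjusted p = 8.6e-06). For neither gene did a treated array reach the controls. Atp1b3, the Na,K-ATPase subunit lower in hypoxia, changed by -1.19 with CoCl2, while 4 of the other 7 subunits and FXYD proteins rose.

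Among the 20 mitochondrial carriers 4 rose and 7 fell with CoCl2, and the median change was -0.09 (0.01 after quantile normalization, so its sign depended on the scaling). Slc25a4 (ANT1), which exchanges ADP for ATP, read 10.78 and 10.65 in the controls, 9.54 and 10.15 at 100 µM, and 9.35 and 9.27 at 200 µM. The change was -1.14 (SE 0.139, adjusted p = 8.6e-07), a 2.2-fold fall. Slc25a11, the malate and 2-oxoglutarate carrier of the malate-aspartate shuttle, read 7.35 and 7.17, then 6.42 and 6.87, then 5.91 and 6.00. Its change was -0.96 (SE 0.109, adjusted p = 2.9e-07). Slc25a15 read 6.40 and 6.62, then 5.54 and 5.70, then 5.51 and 5.16, and changed by -1.03 (SE 0.128, adjusted p = 1e-06). Slc25a10 read 6.94 and 6.89, then 5.99 and 6.26, then 5.86 and 5.92, and its change of -0.91 was close to that at 1% oxygen. For Slc25a5 (ANT2) the probe sets went both ways: the brightest fell by 0.77, and the other 2 changed by -0.284 and 0.365 (adjusted p = 0.046 and 0.018), so no direction is given for the gene. Slc25a28 fell by 0.34.

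Amino acid transporters gave 7 rises (25.0%, against 23.3% of all genes) and 4 falls (14.3%, against 23.0%) among 28 with CoCl2. Slc6a6 read 9.62 and 9.28 in the controls, 8.17 and 8.60 at 100 µM, and 8.24 and 8.32 at 200 µM, a change of -1.12 (SE 0.125, adjusted p = 2.2e-07). A lower probe set of Slc6a6 changed by -0.27 and did not pass, and the mean of both by -0.70. Slc6a15 read 6.75 and 7.0, then 6.00 and 6.15, then 5.55 and 5.66, and changed by -1.03 (SE 0.107, adjusted p = 7.1e-08). Slc1a4 read 8.80 and 8.63, then 8.17 and 8.48, then 7.28 and 7.11, and its change of -0.96 (SE 0.106, adjusted p = 2.1e-07) came mostly from the higher dose. Slc38a2 changed by -0.53 (95% interval -1.11 to 0.04) and did not pass, with 1 array at 100 µM, at 7.90, above both controls. Without that array its adjusted p was 0.0051.

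Nucleotide sugar transporters gave 2 rises and 4 falls among 10. Slc35d1 read 6.85 and 6.66 in the controls, 5.42 and 6.03 at 100 µM, and 5.85 and 5.86 at 200 µM, a change of -0.97 (SE 0.130, adjusted p = 2.8e-06). Slc35b2 read 7.82 and 8.02, then 7.24 and 7.30, then 6.73 and 6.75, a change of -0.92 (SE 0.110, adjusted p = 6.4e-07). Slc35a1, which had not passed at 1% oxygen, gave 6.37 and 6.26, then 5.18 and 5.93, then 5.19 and 5.35, and fell by 0.91 (SE 0.154, adjusted p = 5.8e-05). Slc35e4 went the other way: 6.26 and 6.20 in the controls, 6.55 and 6.70 at 100 µM, and 7.42 and 7.38 at 200 µM. Its rise was 0.78 (SE 0.105, adjusted p = 3.2e-06).

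The rises with CoCl2 were led by Slc37a4 and Slc6a8. Slc37a4 read 7.12 and 6.98 in the controls, 7.77 and 8.15 at 100 µM, and 7.85 and 8.08 at 200 µM, a 1.88-fold rise (change 0.91, SE 0.111, adjusted p = 7.3e-07). Slc6a8, the creatine importer, read 6.25 and 6.45, then 6.87 and 7.06, then 7.31 and 7.65, a 1.83-fold rise (change 0.87, SE 0.105, adjusted p = 7.3e-07). Its second, lower probe set changed by 0.21 (adjusted p = 0.20), and the mean of both by 0.54. Slc22a21, a carnitine transporter, rose by 0.62 and Slc30a9 by 0.58, which was 0.38 without the second array at 100 µM and did not pass with only the arrays of experiment 3 (adjusted p = 0.07). Slc22a21 was dim, with a mean signal of 3.3 over all arrays. Slc27a1 rose by 0.54 and was higher at both doses.

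Other named rises with CoCl2 were smaller. Slc25a36, Slc10a6 (a steroid sulphate transporter), Slc7a1, Slc9a3r2, Slc39a4 (ZIP4) and Slc6a18 rose by 0.50, 0.46, 0.43, 0.42, 0.41 and 0.39. Without the first control of experiment 3, which leaves 1 control, the changes were 0.44, 0.45, 0.38, 0.38, 0.37 and 0.28, and none of these 6 passed (adjusted p = 0.062, 0.064, 0.10, 0.071, 0.061 and 0.12). Small rises were also common among dim genes: of the 3296 genes with a mean signal under the 40th percentile 746 rose and 298 fell, with a median change of 0.18. Among the 60 members under that percentile 12 rose and 3 fell, with a median of 0.16. The 13 vesicular and organic ion transporters gave 5 rises (38.5%, against 23.3% of all genes) and no falls (against 23.0%). These counts and their median of 0.20 are to be read beside the values of the dim genes. After quantile normalization there were 3 rises.

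Metal, lipid and vitamin transporters followed. Metal ion transporters gave 2 rises (14.3%, against 23.3% of all genes), of Slc30a9 and Slc39a4. Their 3 falls (21.4%, against 23.0%) were of Slc39a6 (-0.59), Slc39a9 (-0.55) and Slc30a4 (-0.49). Slc39a6 had an adjusted p of 0.064 without the first control of experiment 3. The second probe set of Slc30a4 changed by 0.27. Slc39a7, lower at 1% oxygen, changed by 0.17 (95% interval -0.11 to 0.45), and passed as a rise after quantile normalization (0.37, adjusted p = 0.02). Lipid, vitamin and nucleoside transporters gave 3 rises (14.3%, against 23.3% of all genes) and 5 falls (23.8%, against 23.0%). Among the falls were Slc10a3 (-0.70), the acetyl-CoA transporter Slc33a1 (-0.56), Slc29a1 (-0.42), Slc44a1 (-0.42) and Slc19a1 (-0.31). Slc33a1 was read by 1 dim probe set, with a mean signal of 2.22 over all arrays, so its fall says little. The second probe set of Slc19a1 passed in the other direction (0.25, adjusted p = 0.047), and that of Slc29a1 changed by 0.39 (adjusted p = 0.092). The call of Slc33a1 was lost without the second control (adjusted p = 0.084). Slc23a2, higher in all 3 hypoxia sets, read 7.14 and 7.11 in the controls, 6.91 and 7.38 at 100 µM, and 7.14 and 7.15 at 200 µM, a change of 0.02 (95% interval -0.24 to 0.28). Slc4a4 changed by 0.08 and Slc16a1 by 0.24, and neither passed. Of 25 genes of the ABC family, which holds many membrane pumps, 5 rose and 4 fell with CoCl2, and 3 rose and 4 fell at 1% oxygen. The falls under both treatments included Abce1, Abcf1 and Abcf2, members of that family that are not membrane pumps.

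The 2 treatments were then set against each other; they share no control arrays. Of 13 members that rose at 1% oxygen 5 (38.5%) also rose with CoCl2, which is 17.2% of the 29 CoCl2 rises. For all genes these shares were 46.5% and 25.1%. Of 31 members that fell at 1% oxygen 19 (61.3%) also fell with CoCl2, which is 67.9% of the 28 CoCl2 falls, against 68.4% and 57.8% for all genes. Rising in both were Slc25a36, Slc27a1, Slc30a9, Slc37a4 and Slc7a1. Slc35e4 and Slc44a1 passed in opposite directions, and 68 members passed in neither, counts that were not made over all genes. Slc44a1 changed by 0.23 and -0.42, the latter -0.26 after quantile normalization and not past the threshold with only the arrays of experiment 3 (adjusted p = 0.061). Passing in every hypoxia set and at both doses were the rise of Slc37a4 and the falls of Slc10a3, Slc12a7, Slc1a4, Slc25a10, Slc35b2, Slc35d1 and Slc39a9. These were 0.699% and 4.9% of the members, against 1.77% and 3.82% of all genes.

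**Figure D4:**
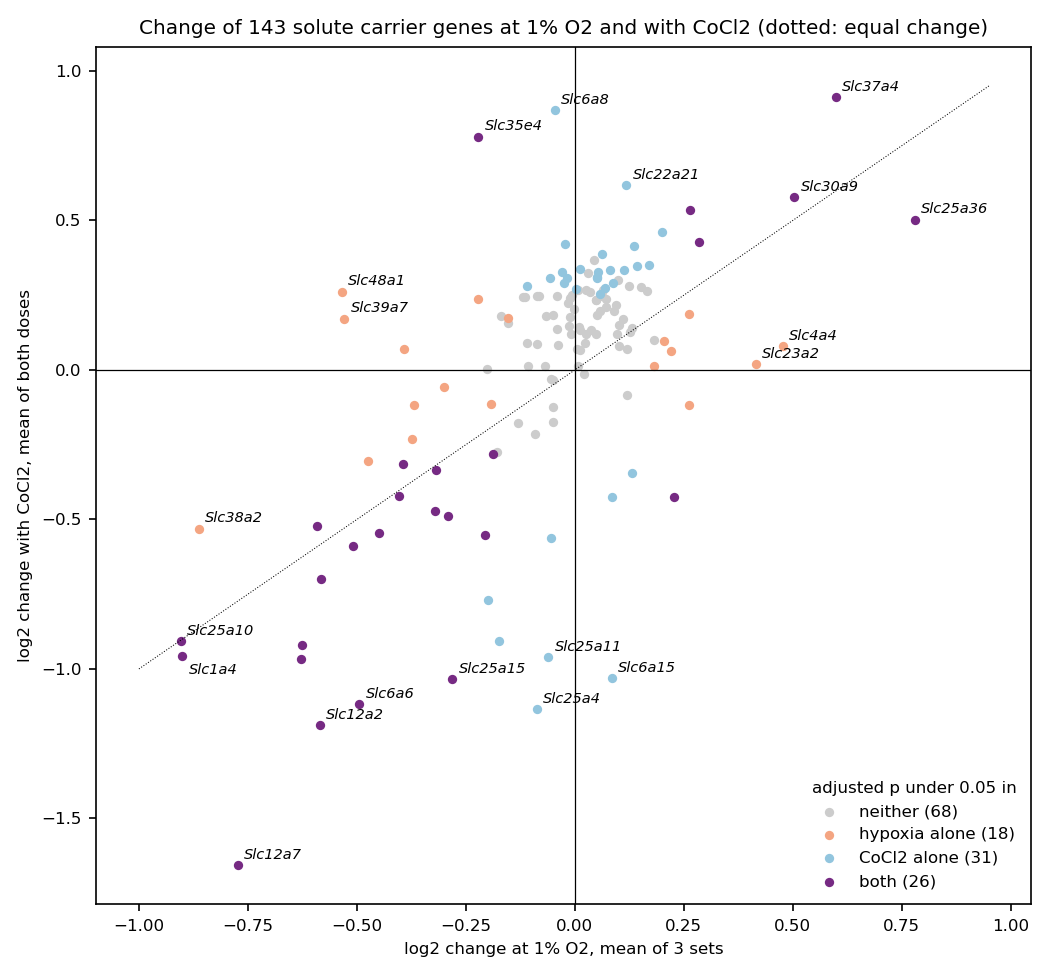
Log2 change with CoCl2 (vertical axis, mean of both doses) against log2 change at 1% oxygen (horizontal axis, mean of 3 sets) for the 143 members, coloured by the treatment in which each passed. Slc25a10 and Slc1a4 lie on the line of equal change, Slc12a7 below it, and Slc25a4, Slc25a11, Slc6a15, Slc6a8 and Slc35e4 far from it.

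The difference between the changes was tested directly. For 12 members the change was higher with CoCl2 (background 9.33%) and for 14 it was lower (background 16%). After median centring the split was 15 and 11, and after quantile normalization 17 and 13. Slc35e4 differed by 1.00 (SE 0.123, adjusted p = 2.6e-06) and Slc6a8 by 0.92 (SE 0.123, adjusted p = 8.1e-06), which read between 5.48 and 6.26 on the 9 hypoxic arrays. With the mean of its probe sets Slc6a8 differed by 0.58. Slc48a1 differed by 0.80 (SE 0.164, adjusted p = 0.001): it fell at 1% oxygen and changed by 0.26 with CoCl2, which passed as a rise after quantile normalization (0.43, adjusted p = 0.0089) and without the first array at 100 µM (0.38, adjusted p = 0.027). Slc6a15, Slc25a4 and Slc25a11 differed by -1.12, -1.05 and -0.90, and each had changed by less than 0.1 over the mean of the hypoxia sets. For Slc6a15 that mean joins changes of opposite sign in experiments 1 and 2, which differed by 0.83. Slc12a7 and Slc12a2, lower in both, fell further with CoCl2 by 0.88 and 0.60. For Slc25a10 and Slc1a4 the difference was -0.00 (95% interval -0.23 to 0.22) and -0.05 (-0.31 to 0.20).

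The 26 differences rested in part on single arrays of experiment 3. The count was 13 without its first control, 17 without its second control and 43 without the second array at 100 µM, while the 6 differences named first passed without any single array. With the Actb 3′ minus 5′ signal as a covariate 26 members passed, and those 6 kept their calls, from -1.11 for Slc6a15 to 1.01 for Slc35e4. The Gapdh signal, which differed between the controls of experiment 3, was not fitted as a covariate. Markers of the melanocyte lineage moved with CoCl2 as given above, and their part in these differences was not tested. All CoCl2 arrays come from experiment 3, so treatment and experiment cannot be told apart beyond each set's own controls.

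**Figure D5:**
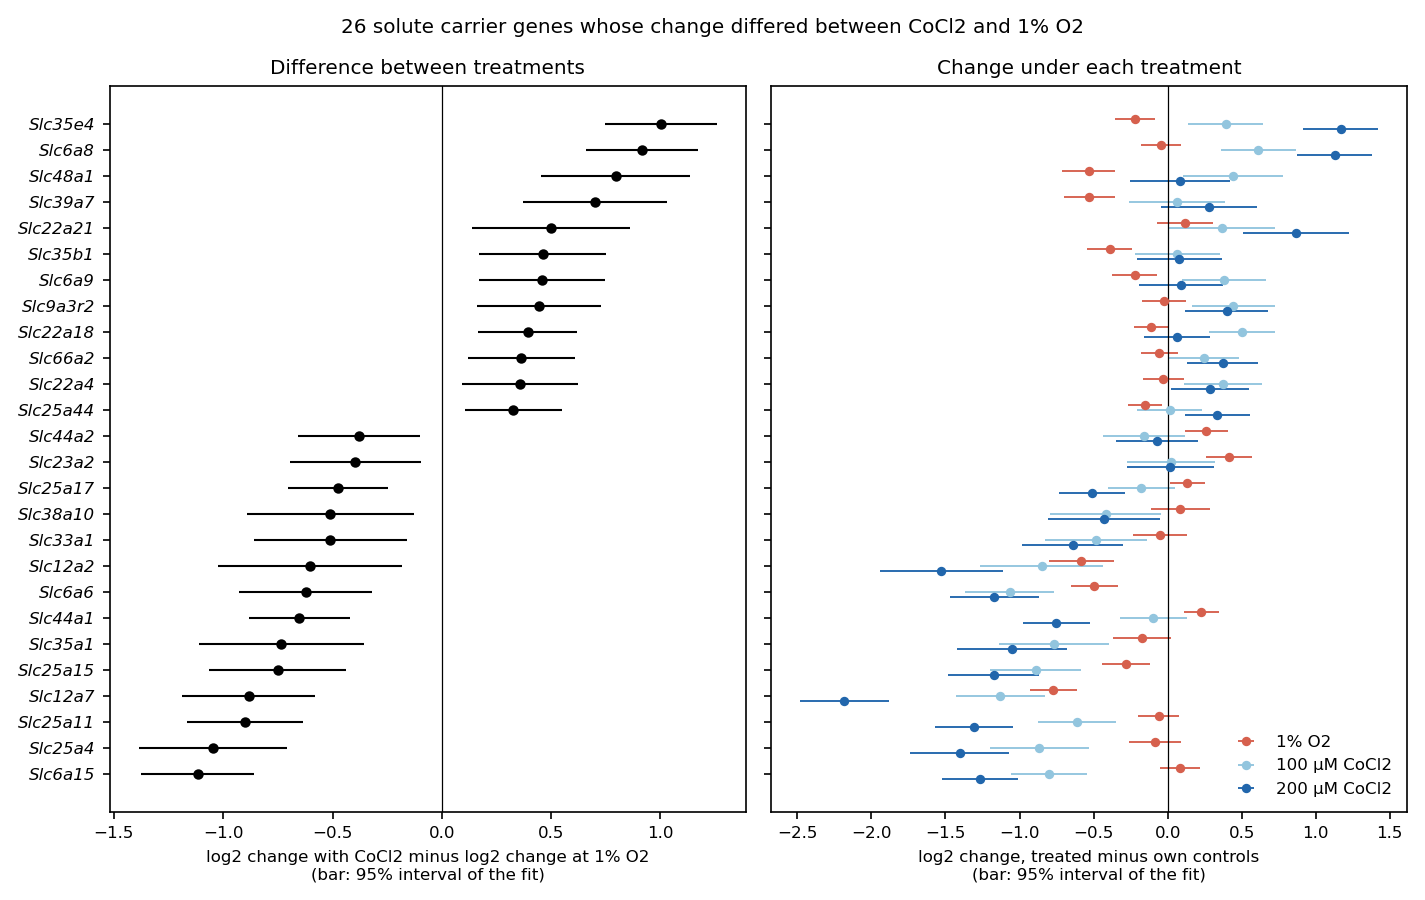
Left, log2 change with CoCl2 minus log2 change at 1% oxygen (points, with 95% intervals of the fit) for the 26 members where this difference passed; right, the change under each treatment and dose. Slc35e4 and Slc6a8 rose with CoCl2 and not at 1% oxygen, where Slc35e4 fell. Slc6a15, Slc25a4 and Slc25a11 fell with CoCl2. For Slc6a15, Slc25a4 and Slc25a11 the intervals of the mean hypoxia change included 0. For Slc6a15 this mean joins sets of opposite sign.

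Between the doses 4 members were higher at 200 µM (background 7.83%) and 18 lower (background 8.85%). Slc1a4 was lower by 1.13 (SE 0.123, adjusted p = 2.2e-06), Slc12a7 by 1.05 (SE 0.144, adjusted p = 3.4e-05) and Slc25a11 by 0.69 (SE 0.126, adjusted p = 0.0006). Slc35e4 was higher by 0.77 (SE 0.122, adjusted p = 0.00014), Slc6a8 by 0.52 (SE 0.122, adjusted p = 0.0049) and the potassium chloride cotransporter Slc12a4 by 0.51 (SE 0.164, adjusted p = 0.038). For Slc37a4 the doses differed by 0.00 (95% interval -0.26 to 0.27). Without the second array at 200 µM the call of Slc6a8 was lost (0.35, adjusted p = 0.12) and 12 members passed instead of 22. The call of Slc12a4 was lost without either array at 100 µM (adjusted p = 0.12 and 0.052) or without the second array at 200 µM (0.64), and without the first array at 200 µM the difference was 0.86. The Actb 3′ minus 5′ signal differed between the doses, as given above. With it as a covariate 2 members passed, Slc12a4 changed sign (-0.35, adjusted p = 0.54), Slc6a8 differed by 0.25 (adjusted p = 0.67), and Slc35e4, Slc12a7 and Slc25a11 had adjusted p-values of 0.15, 0.08 and 0.052. The dose call of Slc6a8 was also lost with array weights (adjusted p = 0.22), with only the arrays of experiment 3 (0.20) and with the mean of its probe sets (0.23, adjusted p = 0.19). Array weights also ended the calls of Slc35e4 (0.069), Slc25a11 (0.066) and Slc12a4 (0.43).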

How the data were processed

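RNA of B16-F10 cells was hybridised to 21 Affymetrix U74Av2 arrays. The deposited values are log2 signals that, per the submitters' processing notes, were made with GCOS 1.2 and RMA, a summary of the probes of each set that commonly shrinks the fold changes of dim genes. The sources used here do not say whether all arrays were summarised in 1 run. The values were used as deposited (array medians 5.44 to 5.53). Their number, 2 or 3 arrays per group, limits the precision. All columns were mapped to samples.

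Of 12488 probe sets, 10833 had 1 annotated gene symbol, 396 had several and were left out, as were 66 controls. Each gene was read by its probe set with the highest mean, which left 8251 genes. A limma 3.58.1 fit (R 4.3.3) with 1 mean per group over all 21 arrays gave two-sided, Benjamini-Hochberg adjusted p-values over all genes, with 0.05 as threshold. A hypoxia mean weights the 3 sets equally, and a CoCl2 mean both doses. The script was tested on simulated data. Single probe sets of a gene were fitted over all single-gene probe sets.

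The members, roles and lists were chosen with earlier results of these data known. Named members were the 12 strongest rises and falls of 1 sign in all sets or doses, the 3 strongest of each sign for each difference, up to 4 per role, and a list of well-known transporters. Some genes of that list were not analysed here. Slc2a8, Slc35b1, Slc35c2 and Slc35e1 were named after their values were seen. Replicate numbers were not taken as pairs (see the correlations in the closing section). Alternatives were median centring, quantile normalization, a filter on dim genes, the mean of a gene's probe sets, trended and robust moderation, array weights, fewer arrays, a replicate block and each array left out. The Actb covariate and a crossed block at 100 µM were added after seeing the data.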

Additional observations from a re-analysis of the deposited data

Results flagged for a closer look

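For 7 results the change under 1 treatment or experiment differed from the change under another, by a limma test of the difference itself. CoCl2 minus 1% oxygen gave 1.00 for Slc35e4, 0.916 for Slc6a8 and 0.796 for the haem transporter Slc48a1, all higher with CoCl2. It gave -1.12 for Slc6a15, -1.05 for Slc25a4 and -0.90 for Slc25a11, all lower with CoCl2. In Slc6a15 the change at 1% oxygen in incubator experiment 1 exceeded that in experiment 2 by 0.831, and this call depended on single arrays. Groups of 2 or 3 arrays are too small for a test of single outlying arrays.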

How the results depend on the processing

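Of 60 named results, 49 kept their call without any single array, 44 under all other settings and 42 under every setting tried. The filter on dim genes kept 50 of the 60, and results of the genes it removed were judged by the remaining settings. No named result changed direction except Slc12a4 between doses (-0.352 with the Actb covariate). The member count at 1% oxygen over 3 sets, 44, moved by under 1.5 times in every setting run. Counts that moved more, from the count reported, were as follows. With array weights the chamber set gave 71 instead of 35, 100 µM 19 instead of 46, 200 µM 30 instead of 49, chamber minus incubator 26 instead of 0, experiment 1 minus 2 gave 4 instead of 1, and the doses 2 instead of 22. With only the arrays of the sets compared the chamber gave 61, the CoCl2 mean 25 instead of 57, 100 µM 13, 200 µM 23, chamber minus incubator 10, experiment 1 minus 2 gave 2 and the doses 3. With the replicate block the chamber gave 20, experiment 1 gave 14 instead of 26, experiment 2 gave 12 instead of 25, CoCl2 minus hypoxia 17 instead of 26, experiment 1 minus 2 gave 0 and the doses 14. With the Actb covariate 100 µM gave 18, the doses 2, and chamber minus incubator and experiment 1 minus 2 gave 3 each. Chamber minus incubator gave 2 with median centring, 1 with quantile normalization and 1 with the filter on dim genes; experiment 1 minus 2 gave 2 with quantile normalization and 2 with the filter. The cause of these shifts was not tested, beyond fewer arrays or genes where the setting itself has them.

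Leaving out each array in turn gave 37 to 44 members at 1% oxygen, 12 to 26 in the chamber, 13 to 26 and 9 to 21 in experiments 1 and 2, 29 to 78 for the CoCl2 mean, 25 to 61 at 100 µM, 31 to 46 at 200 µM, 13 to 43 for CoCl2 minus hypoxia, 0 to 1 and 0 to 2 for the differences between hypoxia sets, and 12 to 26 between doses. Deviations of same-numbered arrays from their group means correlated between -0.37 and 0.235 over genes, so the numbers were not treated as pairs. The block lost the calls of Slc7a1, Slc44a2, Slc25a15 and Slc5a6 at 1% oxygen, Slc22a6, Slc51a and Slc5a6 with CoCl2, Slc6a15 between experiments and Slc12a4 between doses. At 100 µM the replicate block called 31 members and the crossed block 33. Rescaling moved the median change of all genes by under 0.1 in every comparison.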
